A study of Rattus norvegicus with 23 samples.

Results

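Males and females fed a high fat, high sucrose (HFHS) diet were compared by RNA sequencing of the gastrocnemius, a calf muscle of mixed fiber type. The 6 Male HFHS rats were set against the 6 Female HFHS rats, chosen by the diet and sex codes of their columns, which makes 12 of the 23 rats sequenced. All were Wistar rats that received the HFHS diet or standard chow for 14 weeks from 4 weeks of age, were housed at thermoneutrality and were fasted for 2 h before tissue collection. Ovaries were removed from females at 12 weeks of age, followed by estradiol in the drinking water, except for a subset with a sham operation. Which females had which operation is not in the labels, and no surgery or estradiol is described for males. Sex, ovariectomy and estradiol replacement therefore cannot be told apart in any value below. The Male Chow (6 rats) and Female Chow (5 rats) groups were used for the shared estimate of the spread and for the same comparison on chow.

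Skeletal muscle differs between the sexes in size and substrate use, through sex chromosome genes and through sex steroid hormones, which act on transcription factors that bind them. Muscle tissue also holds capillaries, pericytes, fibroblasts, immune cells and nerve, so a level in bulk RNA is a sum over cell types. Fewer cells of a type and less RNA per cell cannot be told apart in such data. Hepatocytes secrete albumin, apolipoproteins and clotting factors, none of which muscle fibers make in quantity, so their transcripts in a muscle library were set apart here.

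Total counts per rat lay between 21152221 and 44633198 in females (median 35491229) and between 29645530 and 50170692 in males (median 36571166) on the HFHS diet. Levels are given as CPM, counts scaled to a common library size (TMM factors), and differences as log2 of males over females. A gene was called when its p value, from the quasi-likelihood F test in edgeR adjusted over all 13365 genes tested, was under 0.05. The muscle label was borne out by Ckm (muscle creatine kinase, 28800 to 41500 CPM), Acta1 (skeletal actin, 58700 to 80100 CPM) and Des (desmin, 4090 to 5230 CPM) over the 12 rats, none of them called. Kdm5d, a demethylase gene on the Y chromosome, was at 11.7 to 14.1 CPM in the males and at 0 to 0.0354 CPM in the females, so the sex codes matched the libraries. The diet codes are less certain. The titles of Female HFHS 224 and 225 give chow, and the title of Female Chow 205 gives HFHS. For males, the diet headings of a published heat map appeared by eye to be the reverse of the column codes. Values below follow the column codes. Counts under other assignments are given with several gene groups, and the named genes that kept their call under them are counted at the end.

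Hepatocyte transcripts differed widely among the females and were lower in males. Alb, the gene of serum albumin, was at 303 CPM in Female HFHS 201, 168 CPM in 224, 156 CPM in 210, 20 CPM in 225, 1.79 CPM in 209 and 1.13 CPM in 202. In males it was at 0.313 CPM at the lowest, 0.443 CPM at the median and 4.97 CPM at the highest. The groups overlapped, since Male HFHS 106 was above Female HFHS 202 and 209. Of 168 hepatocyte list members tested, 93 were lower in males and 0 were higher, with a median log2 difference of -2.79. Genes called lower made up 2.84% of all genes tested and genes called higher 1.99%. The members with the smallest p values were Serpina6 (corticosteroid-binding globulin, 0.0285 to 2.35 CPM in females), Serpinf2 (alpha-2-antiplasmin, 0.313 to 1.54 CPM), A1bg (a plasma glycoprotein, 0.0285 to 9.7 CPM), Cyp2e1 (a cytochrome P450 of hepatocytes, 0.0854 to 2.89 CPM) and Apob (the apolipoprotein of LDL, 0 to 3.17 CPM). In males those 5 genes reached 0.0315, 0.386, 0.0681, 0.188 and 0.0315 CPM at most, in that order. Without Female HFHS 201, 210 and 224, the list held 1 call lower and 1 higher, with a median of -0.67, and without 225 as well it held 0 lower and 1 higher, with a median of 0.10.

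**Figure D1:**
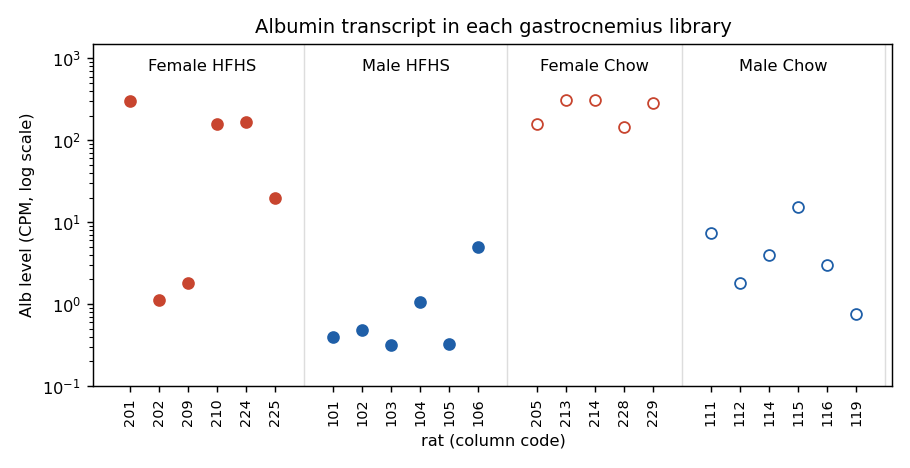
Alb level in CPM on a log axis (y) for each of the 23 rats (x, column codes), with females in red, males in blue, HFHS as filled and chow as open points. Among Female HFHS rats, 202 and 209 sit at 1.13 and 1.79 CPM and 201 at 303 CPM, while the Male HFHS rats lie between 0.313 and 4.97 CPM.

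To keep muscle genes apart from such transcripts, an index was taken as the mean log2 CPM of the 168 hepatocyte list members tested. It ran from -1.60 to 1.20 in Female HFHS rats and from -1.75 to -1.16 in Male HFHS rats, and sex accounted for 43.3% of its variance over these 12 rats. Autosomal genes on the list (164), and genes whose deviations from their group means correlated with the index at 0.5 or more in size (297), were set apart. They held 135 of the 618 autosomal calls, 7 higher and 128 lower. Clec4f, a receptor of the liver macrophages called Kupffer cells, was among those set apart (0 CPM in all 6 males, 0 to 0.378 CPM in females). The remaining 12495 autosomal genes held 246 genes higher and 237 lower in males. Their differences were modest, with a median of 0.46 among the higher genes and -0.35 among the lower ones, and 25 and 36 of them reached 2-fold. The 6 males and 6 females did not overlap for 115 of the higher and 121 of the lower genes, against 1.46% and 1.65% of all genes tested in those directions. A larger share among called genes follows from picking them by p value in the same rats.

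**Figure D2:**
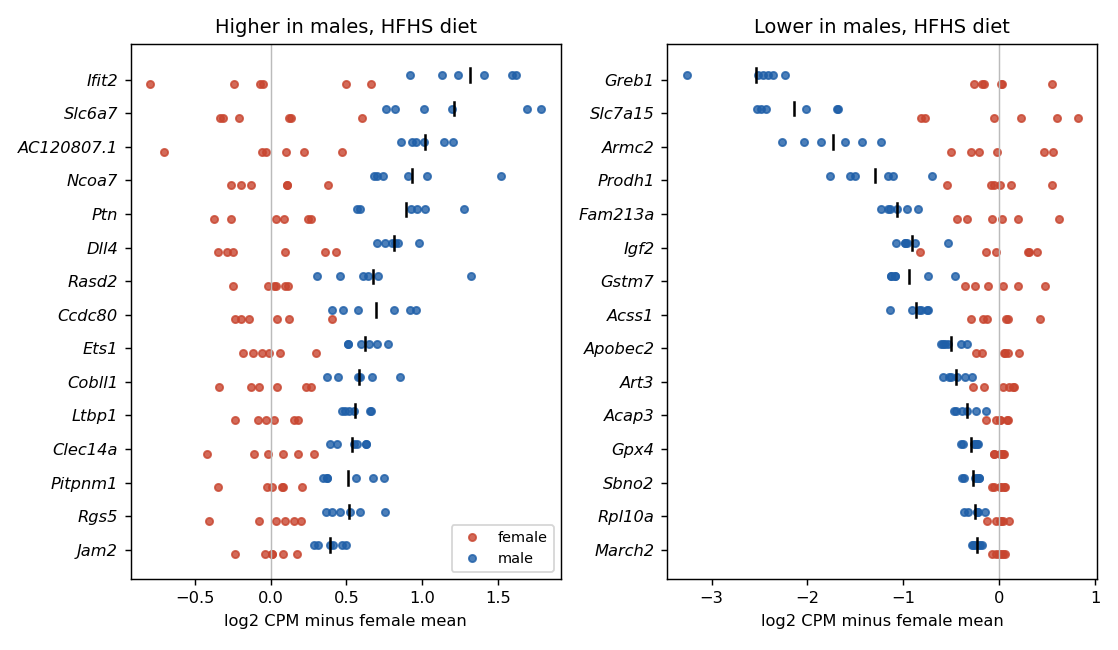
Log2 CPM of each Male HFHS rat (blue) and Female HFHS rat (red) minus the female mean (x) for the 15 higher (left) and 15 lower (right) autosomal genes with the smallest p values outside liver transcripts (y), with black bars at the male means. Ifit2 and Slc6a7 show the widest gaps on the left and Greb1 (log2 -2.52) on the right, and of these 30 genes Igf2 is the one whose groups overlap.

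Greb1 had the smallest p value of all autosomal genes and was lower in males. It is a target of the estrogen receptor that binds the receptor as a cofactor, as known from human breast cancer cells. Females were at 1.88 CPM at the lowest, 2.14 CPM at the median and 3.3 CPM at the highest, and males at 0.235, 0.416 and 0.477 CPM. Every male was below every female, and the level fell by 2.52 on the log2 scale (SE 0.24, 5.75-fold lower, adjusted p = 2.10e-07). On chow the difference was -2.09 (adjusted p = 1.06e-05), and it stayed called under every alternative run and without any 1 rat.

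Estrogen response genes moved in both directions. Of 19 members tested, 2 were higher and 3 lower, Greb1 among them, with a median of -0.06 beside -0.00 over all genes tested. Ccnd1, which encodes the cell cycle regulator cyclin D1, was higher in males (9.8 to 15.9 CPM, median 14.6) than in females (6.76 to 11.2 CPM, median 8.49), by 0.64 (SE 0.13, adjusted p = 0.00637), with 1 male inside the female range. Rara, the retinoic acid receptor alpha, was higher by 0.37 (SE 0.09, adjusted p = 0.0177). Nrip1, a corepressor of nuclear receptors named after its values were seen, was lower (-0.85, SE 0.23, adjusted p = 0.04). Prlr, the prolactin receptor, was at 2.61 CPM in Female HFHS 201 and at 0 to 0.795 CPM in the other females, and it followed the hepatocyte index within groups (r = 0.86 over 23 rats). Without Female HFHS 201, 210 and 224 its difference was -1.24 (adjusted p = 0.655). The calls for Ccnd1 (0.60, adjusted p = 0.0798) and Rara (0.36, adjusted p = 0.134) were lost too, but their differences stayed near those with all rats. Esr1, the estrogen receptor alpha, named after its values were seen, was at 2.94 to 8.99 CPM in females and 3.9 to 7.42 CPM in males and was not called (-0.13, SE 0.22, adjusted p = 0.794). Among 26 androgen response genes 1 was called, beside 1.99% of all genes tested called higher, and the list median was -0.06. It was Steap4, a metalloreductase, higher by 0.31 (SE 0.09, adjusted p = 0.0459), a call lost without any of 10 single rats.

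A share of the endothelial genes was higher in males. Of 25 endothelial markers tested, 9 were higher and 0 lower, with a median of 0.26, and the summed level of the list was 880 to 1050 CPM in males and 660 to 855 CPM in females, without overlap. Of the 9, 1 was also among the genes set apart by their correlation with the hepatocyte index. Cdh5, the cadherin of endothelial junctions, was at 107, 112 and 126 CPM in males (lowest, median, highest) and at 77, 90.1 and 99.1 CPM in females, a difference of 0.36 (SE 0.07, adjusted p = 0.00679). Kdr, the main receptor for the growth factor VEGF, was at 46.4, 54.7 and 68 CPM in males and 25, 37.1 and 49.5 CPM in females, a difference of 0.61 (SE 0.13, adjusted p = 0.00704). The sexes were apart for Cdh5, whereas for Kdr the highest female, 224, lay above the lowest male. Cav1, the coat protein of caveolae, differed by 0.42 (SE 0.09, adjusted p = 0.00679), and Tie1, an endothelial receptor tyrosine kinase, by 0.45 (SE 0.09, adjusted p = 0.00679), both without overlap. Tal1, a transcription factor of blood and vessel progenitors named after its values were seen, differed by 0.56 (SE 0.12, adjusted p = 0.00792). Cldn5, the claudin of endothelial tight junctions, was not called (0.56, SE 0.17, adjusted p = 0.0649), and it overlaps Cdc45 on the other strand with the same counts in effect (r = 1.00), so the 2 genes cannot be told apart. Leaving out 1 rat gave between 7 and 10 endothelial markers higher, and leaving out Female HFHS 201, 210 and 224 gave 3, with a median of 0.31. Library totals without scaling gave 14 and the hepatocyte index as a covariate 4. With the male diets exchanged, 1 was higher and 1 lower and the median was 0.09.

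Jam2, Clec14a and Ets1 were among the 15 higher genes with the smallest p values. Jam2, an adhesion molecule of endothelial junctions, was at 38.6, 41.9 and 44.8 CPM in males and at 26.9, 31.9 and 35.7 CPM in females (0.39, SE 0.06, adjusted p = 0.00126). Gabpa, which it overlaps on the same strand, was not called (0.07, adjusted p = 0.646). Clec14a, a lectin-like receptor of endothelial cells, was at 16.9, 19 and 19.9 CPM in males and 9.59, 13.2 and 15.7 CPM in females (0.51, SE 0.09, adjusted p = 0.00345). Ets1, a transcription factor active in endothelium and lymphocytes, was at 47.7, 51.5 and 57.3 CPM in males and 29.5, 32.7 and 41.2 CPM in females (0.62, SE 0.11, adjusted p = 0.00235). For all 3 genes the lowest male lay above the highest female.

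Dll4, the Notch ligand of tip cells in sprouting vessels, was at 33, 35.6 and 39.9 CPM in males and at 15.9, 19.4 and 27.3 CPM in females, a difference of 0.78 (SE 0.14, adjusted p = 0.00371). Nrarp, a Notch target that feeds back on the pathway, was at 16.9 to 30.9 CPM in males and 12.1 to 16.7 CPM in females, a difference of 0.72 (SE 0.18, adjusted p = 0.023). Both were apart between the sexes, and they were the called members of the 29 Notch genes tested, whose median was 0.14. With the male diets exchanged Dll4 differed by 0.13 (adjusted p = 0.765) and none of the list was called. On chow Dll4 differed by 0.06 (adjusted p = 0.915), but the difference between the diets had an adjusted p of at least 0.96 for every gene.

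Pericyte and smooth muscle genes went both ways. Rgs5, a regulator of G protein signalling that marks pericytes, was at 53.2, 57.9 and 69.7 CPM in males and 31.1, 43.1 and 47.4 CPM in females (0.51, SE 0.09, adjusted p = 0.0021), apart between the sexes. Pdgfrb, the PDGF receptor of pericytes, was higher by 0.46 (SE 0.12, adjusted p = 0.0269), with Female HFHS 224 inside the male range. Lmod1, a smooth muscle protein that nucleates actin, was at 16.7, 24.4 and 29.1 CPM in males and 33.7, 46 and 59.8 CPM in females, a fall of -1.02 (SE 0.21, adjusted p = 0.00863). Tagln, the smooth muscle protein transgelin, fell by 0.24 (SE 0.06, adjusted p = 0.026). Of 16 members, 2 were higher and 2 lower.

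Some basement membrane and matrix genes were higher in males as well. Of 71 members tested, 10 were higher and 0 lower, with a median of 0.19. Col15a1, a collagen next to basement membranes, was at 6.62, 8.13 and 9.4 CPM in males and 3.53, 4.67 and 5.17 CPM in females (0.85, SE 0.17, adjusted p = 0.00638), without overlap. Sparc, a collagen-binding matrix protein, was at 409, 501 and 626 CPM in males and 314, 355 and 455 CPM in females (0.46, SE 0.09, adjusted p = 0.00606), with Female HFHS 224 inside the male range. Tgfbr2, a receptor for TGF-beta, differed by 0.50 (SE 0.10, adjusted p = 0.00618) and Col18a1, a basement membrane collagen, by 0.41 (SE 0.09, adjusted p = 0.012). None of the 19 fibroblast markers tested was called (median 0.11). DESeq2 called 16 matrix genes higher, library totals without scaling 15 and the diets of the female titles 27. Leaving out Female HFHS 210 left 4 higher, leaving out 201, 210 and 224 left 2, and exchanging the male diets left 0 higher and 1 lower with a median of 0.01.

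Col4a1 and Col4a2, named after their values were seen, encode the 2 chains of the main collagen IV trimer and moved together. Col4a1 was at 238, 288 and 329 CPM in males and 159, 209 and 254 CPM in females (0.41, SE 0.10, adjusted p = 0.0262), and Col4a2 at 120, 150 and 170 CPM and 72.7, 106 and 127 CPM (0.46, SE 0.12, adjusted p = 0.0315). In both genes Male HFHS 101 was highest and Female HFHS 210 lowest, and Female HFHS 202 and 224 lay inside the male range. In RefSeq the pair starts head to head with 76 bases between the starts (GRCr8, chr16:84885521-84885596, plus strand), although the annotation of the deposited table places the starts farther apart. That stretch is shown because both genes are read outward from it.
between Col4a2 and Col4a1: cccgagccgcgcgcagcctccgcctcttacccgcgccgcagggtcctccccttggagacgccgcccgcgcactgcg

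**Figure D3:**
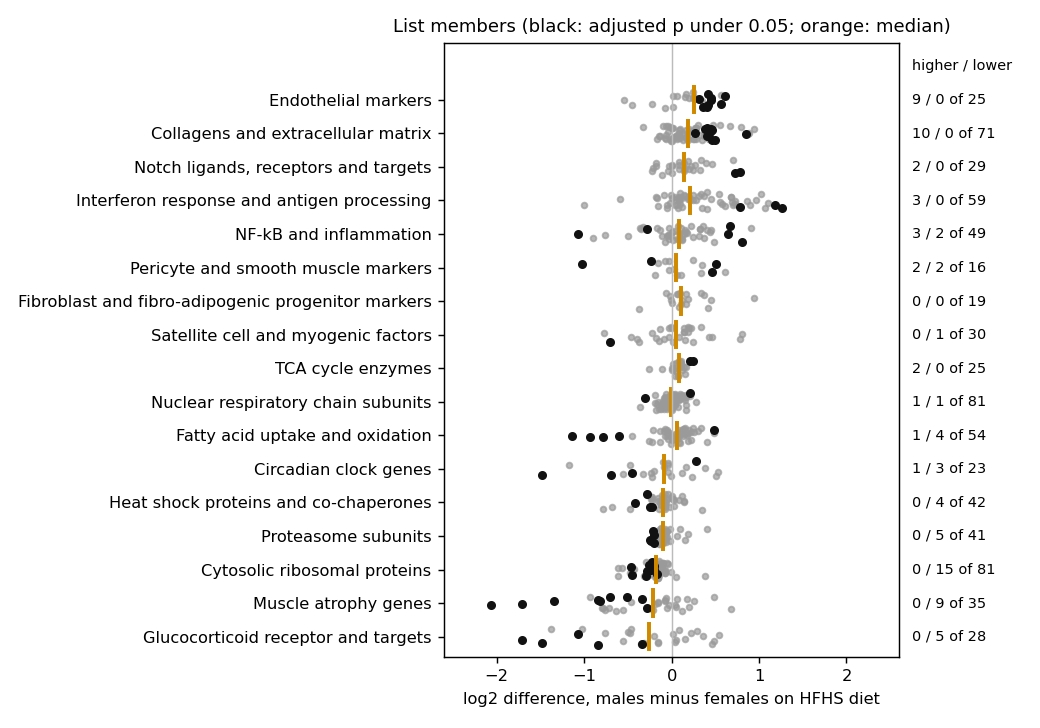
Log2 difference of males over females on the HFHS diet (x) for every tested member of 17 gene lists (y), with called members in black, others in grey, the list median as an orange bar and the numbers called higher and lower at the right. Endothelial and matrix lists hold 9 and 10 calls and 0 lower, while ribosomal and muscle atrophy lists hold 15 and 9 calls lower and 0 higher.

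Interferon response genes were higher in males for 3 of 59 members tested (0 lower), with a median of 0.21. Ifit2, which binds viral RNA, was at 17.7, 23.4 and 28.7 CPM in males and at 5.38, 8.94 and 14.8 CPM in females, a difference of 1.26 (SE 0.21, 2.39-fold, adjusted p = 0.00216), without overlap. Gbp2, an interferon-induced GTPase, was at 7.31, 9.05 and 12.6 CPM in males and 4.11, 4.96 and 8.45 CPM in females (0.78, SE 0.16, adjusted p = 0.00637). Ifit3, a partner of Ifit2, was at 3.65, 5.14 and 8.73 CPM in males and 1.34, 2.14 and 5.04 CPM in females (1.18, SE 0.30, adjusted p = 0.0254). Female HFHS 209 had the highest level of all 3 genes among females and lay inside the male range for Gbp2 and Ifit3. On chow, where 0.307% of all genes tested were called higher in males and 1.41% lower, the list had a median of -0.12 and 0 calls. The count depended on the setting: DESeq2 and library totals without scaling each called 10 members higher, leaving out 1 rat gave 2 to 8, leaving out Female HFHS 201, 210 and 224 gave 1, and leaving out 225 as well or exchanging the male diets gave 0. The call for Ifit3 was lost without any of 6 single rats.

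Interferons act through factors that bind a response element, searched here as GAAANNGAAA on both strands. Within the 120 bases before the start in RefSeq (GRCr8), 530 of 33469 promoters (1.58%) held it. Of 47 list members with a promoter entry, 20 held it, among them Ifit3 and Gbp2, and their median difference was 0.24 against 0.19 for the 27 without it. The 2 called genes with an entry are shown with the match in capitals, read 5' to 3' toward the start.
Ifit3 (chr1:241527206-241527325, plus strand): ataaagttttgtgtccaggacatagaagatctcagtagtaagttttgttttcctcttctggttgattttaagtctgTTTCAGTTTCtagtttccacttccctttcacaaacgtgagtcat
Gbp2 (chr2:234005607-234005726, plus strand): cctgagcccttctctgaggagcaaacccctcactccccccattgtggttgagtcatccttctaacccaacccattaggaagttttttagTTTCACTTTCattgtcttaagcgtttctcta
The match began 44 bases before the start in Ifit3 and 31 bases before it in Gbp2.

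NF-kB and inflammation genes were called in both directions, 3 higher and 2 lower of 49 (median 0.08). Tnfaip3, which encodes A20, a ubiquitin editing enzyme that restrains NF-kB, was at 10.2, 12.7 and 15.2 CPM in males and 7.7, 7.86 and 8.25 CPM in females (0.67, SE 0.15, adjusted p = 0.013). Nfkbiz, a nuclear regulator of NF-kB, was at 2.62, 3.72 and 5.33 CPM in males and 1.81, 2.23 and 2.47 CPM in females (0.80, SE 0.22, adjusted p = 0.0373). Both were apart between the sexes. Traf1, an adaptor of TNF receptors, was higher by 0.64 (SE 0.16, adjusted p = 0.0219), and Cebpd, a transcription factor of acute inflammation and of the glucocorticoid response, fell by 1.07 (SE 0.30, adjusted p = 0.0443). Without Female HFHS 202 the list held 1 call higher and 0 lower, without 201, 210 and 224 it held 0 in either direction, and with library totals 7 higher and 1 lower. An NF-kB site, searched as GGGNNTTTCC on both strands, was in 213 of 33469 promoters (0.636%) of the same length. Of 39 list members with a promoter entry, 6 held it, 2 of them called (Tnfaip3 and Nfkbiz, both higher), with a median difference of 0.38, and 33 did not, among them Traf1, with a median of 0.10. The 2 members called lower had no promoter entry and are in neither count. The 2 called genes with a match are shown with matches in capitals.
Tnfaip3 (chr1:15543980-15544099, minus strand): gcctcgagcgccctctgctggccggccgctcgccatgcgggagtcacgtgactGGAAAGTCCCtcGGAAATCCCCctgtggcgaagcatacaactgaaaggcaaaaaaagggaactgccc
Nfkbiz (chr11:58251601-58251720, plus strand): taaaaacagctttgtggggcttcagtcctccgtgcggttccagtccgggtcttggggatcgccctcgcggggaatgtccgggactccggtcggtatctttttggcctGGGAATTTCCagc
Tnfaip3 held 2 matches, which began 67 and 55 bases before the start, and Nfkbiz held 1, which began 13 bases before it. With the male diets exchanged, the difference of Nfkbiz turned to -0.31 (adjusted p = 0.628).

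Several muscle atrophy genes were lower in males. Of 35 members tested, 9 were lower and 0 higher, with a median of -0.21. Cdkn1a, the cell cycle inhibitor p21 and a p53 target, was at 9.07, 15.1 and 21.8 CPM in males and 19.9, 50.5 and 159 CPM in females, a fall of -2.06 (SE 0.38, 4.18-fold lower, adjusted p = 0.00497). Female HFHS 202 was far above the other females and 201 lay inside the male range. Cdkn1a ran against the hepatocyte index within groups (r = -0.60) and so was set apart, and without Female HFHS 201, 210 and 224 its difference was -2.57 (adjusted p = 0.000861). That fit kept 202, whereas leaving out 1 rat in turn gave -2.25 to -1.54. Mt2A, a metallothionein that binds zinc, was at 0.272, 0.363 and 0.818 CPM in males and 0.537, 1.25 and 2.33 CPM in females (-1.71, SE 0.35, adjusted p = 0.00679). Myog, the myogenic factor myogenin, was at 14.6, 17.7 and 20.8 CPM in males and 22.6, 26 and 40.1 CPM in females (-0.71, SE 0.15, adjusted p = 0.0101), without overlap. Apobec2, a muscle member of a deaminase family, was at 328, 343 and 396 CPM in males and 423, 521 and 580 CPM in females (-0.51, SE 0.09, adjusted p = 0.00309), without overlap, and was lower on chow too (-0.62, adjusted p = 0.000349). Chrne, a subunit of the adult acetylcholine receptor, fell by 0.84 (SE 0.21, adjusted p = 0.0245), but it overlaps LOC687707 on the other strand (r = 0.79). Gadd45a, a stress gene, fell by 0.82 (SE 0.21, adjusted p = 0.0269). Leaving out Female HFHS 202 left 5 of the 9 calls, leaving out 201, 210 and 224 left 4, and exchanging the male diets left 1, with Cdkn1a at -1.22 (adjusted p = 0.115). The diets of the female titles gave 15 lower and 1 higher.

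Genes of the glucocorticoid receptor and its targets held 5 calls lower and 0 higher of 28 (median -0.26), some of them shared with the atrophy list. Glul, glutamine synthetase, was at 373, 482 and 667 CPM in males and 728, 799 and 1240 CPM in females (-0.84, SE 0.17, adjusted p = 0.00805), without overlap. Per1, a clock gene that glucocorticoids also induce, was at 11.9, 27.4 and 55.8 CPM in males and 39.7, 84.2 and 144 CPM in females (-1.48, SE 0.40, adjusted p = 0.0408), with overlap. Klf15, a transcription factor of amino acid breakdown, fell by 0.34 (SE 0.10, adjusted p = 0.0449). On chow the list had 1 call higher, 0 lower and a median of -0.03. Among 23 clock genes, Cry1 (-0.45, SE 0.11, adjusted p = 0.0191), Nfil3 (-0.69, SE 0.19, adjusted p = 0.0399) and Per1 were lower and Dbp higher (0.28, SE 0.08, adjusted p = 0.0401). Times of tissue collection are not given in the sources used here. Without Female HFHS 202, or without 201, 210 and 224, the glucocorticoid list held 2 calls lower, with the male diets exchanged 0, with DESeq2 8 and with the diets of the female titles 11. Without Male HFHS 101, or with the male diets exchanged, the clock list held 0 lower.

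Female HFHS 202 stood at the edge of the females more often than the others. Among the 237 lower genes outside liver transcripts it was the highest female in 32.1%, and among the 246 higher genes it was the lowest female in 35.4%, while 210 was the lowest in 35% and 224 the highest in 36.6%. Male HFHS 101 was the highest male in 35.4% of the higher genes and the lowest male in 31.6% of the lower genes. Without 202, 157 genes were higher and 141 lower outside liver transcripts.

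Immediate early genes were called once in each direction. Egr3, an early growth response transcription factor, was at 5.42, 8.65 and 23.3 CPM in males and 1.1, 1.41 and 4.39 CPM in females, a difference of 2.37 (SE 0.52, 5.18-fold, adjusted p = 0.0126), without overlap. Myc, a growth transcription factor, fell by 0.72 (SE 0.21, adjusted p = 0.0462), with Female HFHS 202 highest at 10.7 CPM. These were the 2 called genes of 29, and the call for Myc was lost without any of 10 single rats. Egr3 kept its call without any 1 rat, but not without Female HFHS 201, 210 and 224 (2.43, adjusted p = 0.0977), with the hepatocyte index as a covariate (adjusted p = 0.12) or with the male diets exchanged (0.40, adjusted p = 0.821).

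Some transcripts of the protein synthesis and breakdown machinery were slightly lower in males. Of 81 cytosolic ribosomal protein entries tested, 15 were lower and 0 higher, 79 had a negative difference and the median was -0.18. Summed over the list, males were at 12800 to 14700 CPM and females at 15000 to 16000 CPM, without overlap. Rpl10a, a protein of the large subunit, was at 84.5, 93.1 and 98.9 CPM in males and 99.9, 110 and 117 CPM in females (-0.25, SE 0.05, adjusted p = 0.00384), and it overlaps Tead3 on the other strand (r = 0.99), so the 2 cannot be told apart. Of 41 proteasome subunits 5 were lower and 0 higher (median -0.10), with Psmb7, a catalytic core subunit, at 155 to 173 CPM in males and 175 to 210 CPM in females (-0.25, SE 0.05, adjusted p = 0.00971). Of 42 heat shock proteins and co-chaperones 4 were lower and 0 higher (median -0.10), among them Hspb2, a small heat shock protein of muscle (-0.25, SE 0.06, adjusted p = 0.0197). The calls among these small shifts depended on the scaling. With library totals and no scaling factors the median of all genes moved to 0.092. The list medians moved to -0.08, -0.01 and -0.00, still below it, and none of the 3 lists held a call. Nor did any of them without Female HFHS 201, 210 and 224 (medians -0.16, -0.12 and -0.12) or with the male diets exchanged, while the diets of the female titles gave 24, 4 and 5 lower.

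A few genes of energy metabolism were called. Of 25 TCA cycle enzymes 2 were higher and 0 lower, beside 1.99% of all genes tested called higher. In that list 22 had a positive difference and the median was 0.08. The 2 were Cs (citrate synthase, 471 to 539 CPM in males and 412 to 451 CPM in females, 0.24, SE 0.07, adjusted p = 0.0405) and Sdha (the flavoprotein of complex II, 804 to 913 and 661 to 799 CPM, 0.21, SE 0.06, adjusted p = 0.0491), both without overlap. The call for Cs was lost without any of 7 single rats and that for Sdha without any of 9. Both calls were lost without Female HFHS 201, 210 and 224, where the differences were 0.28 and 0.26. With the male diets exchanged both were lost as well, at 0.16 and 0.18. Among 81 respiratory chain entries Sdha was higher and Cox6a2, a muscle subunit of cytochrome oxidase, lower, at 917, 1080 and 1210 CPM in males and 1220, 1310 and 1470 CPM in females (-0.30, SE 0.06, adjusted p = 0.00939). The median of that list was -0.01. Perm1, a muscle regulator of mitochondrial genes, was at 350, 406 and 474 CPM in males and 193, 301 and 321 CPM in females (0.51, SE 0.14, adjusted p = 0.0361), without overlap, a call lost without any of 7 single rats.

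Fatty acid genes held 1 call higher and 4 lower of 54 (median 0.06). Acsl6, which activates long-chain fatty acids, was at 170, 190 and 225 CPM in males and 97, 142 and 160 CPM in females (0.49, SE 0.11, adjusted p = 0.0101). Ppard, a nuclear receptor that turns on fatty acid oxidation genes, was at 25.1, 27.8 and 30.9 CPM in males and 31.3, 43 and 50.1 CPM in females (-0.60, SE 0.12, adjusted p = 0.00578). Both were apart between the sexes. Ucp2, a mitochondrial carrier, fell by 1.14 (SE 0.32, adjusted p = 0.0413) with Female HFHS 202 highest at 55.8 CPM and 201 inside the male range, a call lost without any of 10 single rats. Ehhadh, a peroxisomal oxidation enzyme that the hepatocyte list also holds, fell by 0.79 (SE 0.19, adjusted p = 0.0197). Of 45 insulin signalling genes 1 was called, beside 1.99% of all genes tested called higher, and the list median was -0.03. It was Grb14, an adaptor that restrains the insulin receptor, higher by 0.54 (SE 0.15, adjusted p = 0.0415), a call lost without any of 9 single rats. None of 22 fast or 17 slow sarcomere genes was called, although 19 and 14 of them had a negative difference. The medians were -0.21 and -0.31, and -0.11 and -0.22 with library totals. 

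Markers of other cell types held few calls. Of 11 mast cell and neutrophil markers 2 were lower and 0 higher (median -0.44), both mast cell tryptases. Tpsab1 was at 0.853, 0.939 and 1.92 CPM in males and 1.54, 2.67 and 3.4 CPM in females (-1.21, SE 0.26, adjusted p = 0.00971), with overlap, and it kept its call under every alternative run. Tpsb2, a close paralog whose reads may be shared with it, differed by -0.89 (SE 0.25, adjusted p = 0.0449), a call lost without any of 10 single rats. Of 22 macrophage markers 1 was lower, the Kupffer cell gene Clec4f, and of 9 tendon and cartilage markers 1, Prg4, which encodes the joint lubricant lubricin (-0.42, SE 0.11, adjusted p = 0.0245). Prg4 was the lowest of those 9 markers, of which 7 had a positive difference, and their median was 0.52. None of 16 adipocyte, 13 Schwann cell, 5 erythrocyte and 4 lymphocyte markers was called.

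Of 39 genes of myostatin, IGF and growth signalling 2 were called, Igf2 and Smad7, both lower, beside 2.84% of all genes tested called lower. The list median was -0.03, with 16 positive and 23 negative differences. Igf2, an insulin-like growth factor of muscle regeneration, was at 41.3, 44.3 and 60.1 CPM in males and 49.1, 96 and 114 CPM in females (-0.95, SE 0.17, adjusted p = 0.00433), with Female HFHS 201 inside the male range. Smad7, an inhibitor of TGF-beta signalling, fell by 0.53 (SE 0.15, adjusted p = 0.0361).

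Among the remaining genes with the smallest p values, several lower in males encode metabolic enzymes and transporters. Slc7a15, of an amino acid transporter family, was at 0.383, 0.477 and 0.688 CPM in males and 1.25, 2.35 and 3.89 CPM in females (-2.22, SE 0.31, 4.67-fold lower, adjusted p = 0.000211). Acss1, the mitochondrial acetyl-CoA synthetase, was at 60.2, 74.5 and 78.9 CPM in males and 108, 130 and 178 CPM in females (-0.88, SE 0.14, adjusted p = 0.00194). Prodh1, proline dehydrogenase, was at 2.86, 3.88 and 5.97 CPM and 6.69, 9.57 and 14.3 CPM (-1.30, SE 0.22, adjusted p = 0.00216). In none of these 3 did any male reach the lowest female.

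Gstm7, Fam213a and Gpx4 were also among the 15 lower genes with the smallest p values. Gstm7, a glutathione S-transferase, was at 77, 79.4 and 123 CPM in males and 132, 165 and 235 CPM in females (-0.94, SE 0.15, adjusted p = 0.00126). Fam213a, a peroxiredoxin-like protein, was at 6.72, 7.32 and 8.74 CPM in males and 11.6, 15.6 and 24.2 CPM in females (-1.10, SE 0.17, adjusted p = 0.00098). Gpx4, which reduces lipid peroxides, was at 247, 273 and 280 CPM in males and 313, 328 and 337 CPM in females (-0.29, SE 0.05, adjusted p = 0.00323). All were without overlap, but Gpx4 and Sbno2 (-0.28, SE 0.05, adjusted p = 0.00414) overlap on opposite strands with nearly the same counts (r = 1.00) and cannot be told apart. Of 43 antioxidant genes 2 were called, Gpx4 and the quinone reductase Nqo1 (-0.58, SE 0.15, adjusted p = 0.0259), both lower, with a list median of -0.03, and 0 were called with library totals, without Female HFHS 201, 210 and 224 or with the male diets exchanged. The other lower genes were Armc2 (-1.75, SE 0.28, adjusted p = 0.00126), Art3, of an ADP-ribosyltransferase family (-0.45, SE 0.08, adjusted p = 0.00357), the ubiquitin ligase March2 (-0.23, SE 0.04, adjusted p = 0.00371) and Acap3, a GTPase-activating protein (-0.34, SE 0.06, adjusted p = 0.00465).

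On the higher side, secreted and matrix-bound factors included Ptn, the heparin-binding growth factor pleiotrophin, at 6.5, 8.42 and 10.6 CPM in males and 3.38, 4.56 and 5.26 CPM in females (0.89, SE 0.16, adjusted p = 0.00371). Ltbp1, which holds latent TGF-beta in the matrix, was at 19, 19.8 and 21.7 CPM in males and 11.6, 13.6 and 15.5 CPM in females (0.55, SE 0.10, adjusted p = 0.00357). Ccdc80, a secreted matrix protein, was at 22.3, 27.3 and 32.7 CPM in males and 14.3, 16.3 and 22.3 CPM in females (0.69, SE 0.12, adjusted p = 0.00339). For these 3 genes no female exceeded the lowest male, and the highest female for Ccdc80 equalled it to the digits shown. The entry AC120807.1, without an annotated role, had the smallest p value of the higher autosomal genes, with 5.12, 5.57 and 6.49 CPM in males and 1.73, 2.89 and 3.91 CPM in females (0.98, SE 0.13, adjusted p = 0.000203). Slc6a7, a proline transporter, differed by 1.21 (SE 0.21, adjusted p = 0.00268), Rasd2, a Ras-like GTPase, by 0.71 (SE 0.12, adjusted p = 0.00295), Ncoa7, a nuclear receptor coactivator, by 0.93 (SE 0.17, adjusted p = 0.00339), Cobll1, an actin-binding protein, by 0.56 (SE 0.10, adjusted p = 0.00322) and Pitpnm1, a phosphatidylinositol transfer protein, by 0.51 (SE 0.09, adjusted p = 0.00308).

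The directions outside liver transcripts were mostly the same in the rats fed chow. On chow, 230 of the 246 higher and 218 of the 237 lower genes had the same sign, beside 65.2% of all 12495 such genes with one sign on both diets, and 26 were called on chow in the same direction and 0 in the opposite one. Greb1, Apobec2, Igf2, Rgs5, Slc6a7 (1.08, adjusted p = 0.00796) and Acss1 (-0.59, adjusted p = 0.0431) were among those called on both diets, with Igf2 at -0.84 (adjusted p = 0.0109) and Rgs5 at 0.40 (adjusted p = 0.0136) on chow. In the test of whether the sex difference itself differed between the diets, edgeR called 0 genes, with 652 at an unadjusted p under 0.05, and DESeq2 called 1. None of the differences above was therefore shown to be particular to the HFHS diet. Liver transcripts also differed by sex on chow, with Alb at 145 to 311 CPM in Female Chow and 0.753 to 15.4 CPM in Male Chow rats. Both comparisons shared that imbalance, and its part in the shared signs was not tested.

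The directions were the same without the females richest in liver transcripts. Without Female HFHS 201, 210 and 224, all 483 genes outside liver transcripts kept their sign, with the other 9 rats in common. Since these genes were picked by their calls in the full set of rats, kept signs were likely beforehand and are no independent check. The median ratio of the new to the old log2 difference was 1.016. The median SE of those genes went from 0.104 to 0.126, and 85 of them stayed called (51 higher and 39 lower genes in all). With the index as a covariate, 483 kept their sign and 102 stayed called. Exchanging the male diets had a larger effect on size: 480 kept their sign, the median ratio was 0.636 and 55 stayed called, while 851 genes were then called on chow.

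Of 84 called autosomal genes named above (Nrip1, Tead3, Alb, Clec4f and the 5 hepatocyte genes named with Alb not counted), 54 kept their call without any 1 rat, 82 with the diets of the female titles, 36 without Female HFHS 201, 210 and 224 and 18 with the male diets exchanged. Both of the last conditions were met by 12, namely Greb1, Slc7a15, Fam213a, Acss1, Apobec2, Igf2 and Tpsab1 on the lower side and AC120807.1, Rgs5, Rasd2, Clec14a and Cav1 on the higher side.

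**Figure D4:**
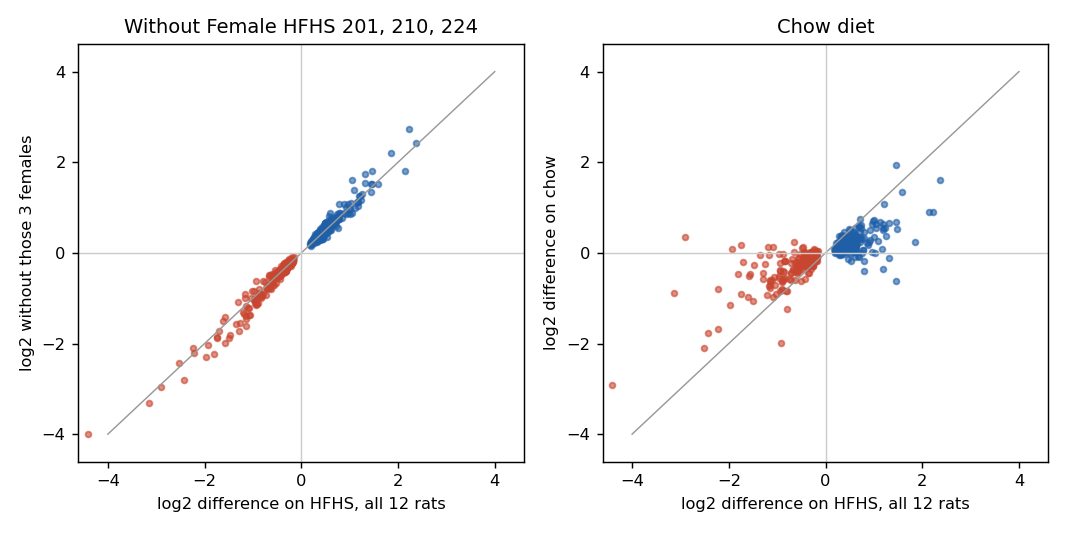
Log2 difference on the HFHS diet with all 12 rats (x) for the 483 called autosomal genes outside liver transcripts, against the difference without Female HFHS 201, 210 and 224 (left, y) and against the difference between Male Chow and Female Chow (right, y), higher genes in blue, lower in red, grey line for equal values. On the left all 483 points keep their sign, and on the right 448 do.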

How the data were processed

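Gene expression was measured by polyA-selected, directional RNA sequencing of gastrocnemius, with 1 library per rat and 23 rats. Per the study's methods and notes, fastp trimming, STAR 2.7.6a alignment (rn6) and SeqMonk counting per gene were used. The values the authors deposited are raw counts without normalization, and the annotation release and the use of strand in counting are not given in the sources used here. Entries without a gene name (16, at most 0.000294% of a rat's counts) were left out. Groups came from the column codes.

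The edgeR package 4.0.16 under R 4.3.3 (filterByExpr, TMM, robust quasi-likelihood F tests) fitted 1 model with 4 group means over 23 rats, with Benjamini-Hochberg adjustment over 13365 genes and a threshold of 0.05. Rats are single samples whose housing by sex, extraction batches and sequencing batches are not given, so p values measure the spread between these rats. The SE of a log2 difference was its size divided by the square root of F. The 253 pairs of libraries held 0 identical ones.

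Named genes were the 15 higher and 15 lower autosomal genes with the smallest p among those called, with a symbol other than a locus number, at least 1 CPM on average and outside liver transcripts, up to 4 members of each list described with the smallest p, Alb and 5 further hepatocyte transcripts, and sex chromosome genes. Tal1, Cldn5, Col4a1, Col4a2, Nrip1 and Esr1 were added after their values were seen. The comparison, its members and the 49 lists were chosen with earlier results of these data known. Of 1779 list symbols, 1643 matched by symbol and 42 by synonym. Of the lists, the text describes those with calls or with cell types of interest. Some genes that the rule names are not reported here. No gene set test was run. Alternatives covered scaling, filters, DESeq2 1.42.0, limma-voom (limma 3.58.1), the 12 HFHS rats alone, the hepatocyte index as a covariate, other diet assignments, the title number as a block and leaving out rats.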

Additional observations from a re-analysis of the deposited data

Results flagged for a closer look

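In each HFHS group of 6 rats, the levels of the named genes, the hepatocyte index and the total counts were searched for a rat whose gap to the next rat, as a share of the group's range, exceeded Dixon's critical value. Of 192 such checks 23 found one. The usual chance rate of about 1 in 20 assumes normally distributed values and independent checks. Gene levels were taken here as CPM without a log, and the named genes were picked and partly overlap. A gene with counts in a single rat of a group, such as Apob in males or Kdm5d in females, is always found. Whether 23 exceeds chance was therefore not tested.

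Among females, 7 of the genes found concerned rat 202. It was highest for Cdkn1a (159 CPM, next 62.6), Cebpd (44.6 CPM, next 22.4), Ucp2 (55.8 CPM, next 25.2), Cry1 (35.9 CPM, next 24.6) and Myc (10.7 CPM, next 5.86), and lowest for Perm1 (193 CPM, next 286). It also held a Kdm5d level of 0.0354 CPM where the other females were at 0. Female HFHS 201 was highest for Greb1 (3.3 CPM, next 2.3) and Prlr (2.61 CPM, next 0.795), 209 for Ifit3 (5.04 CPM, next 2.71) and 210 for Prg4 (44.9 CPM, next 37).

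In males, rat 106 was highest for the hepatocyte index (-1.16, next -1.53), Alb (4.97 CPM, next 1.07), Apob (0.0315 CPM, the others at 0), Mt2A (0.818 CPM, next 0.399), Tpsab1 (1.92 CPM, next 1.07) and Ncoa7 (2.8 CPM, next 2). Male HFHS 104 was highest for Esr1 (7.42 CPM, next 4.36) and A1bg (0.0681 CPM, next 0.0235), 103 for Rasd2 (35.6 CPM, next 23.3), 101 for Igf2 (60.1 CPM, next 47.2) and 105 for Klf15 (37.7 CPM, next 32.2), and 105 was lowest for Greb1 (0.235 CPM, next 0.393). The causes were not tested.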

How the results depend on the processing

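Outside liver transcripts 246 genes were higher and 237 lower, and over all autosomal genes 253 and 365. Library totals without scaling gave 625 and 86 (autosomal 639 and 206), DESeq2 426 and 386 (autosomal higher 442), the hepatocyte covariate 57 and 52 (72 and 63), the diets of the female titles 585 and 570 (603 and 711), and exchanged male diets 42 and 49 (45 and 81). With the title number as a replicate block the counts were 139 and 128 (142 and 217). The numbers did not pair the rats, since same-numbered rats correlated at -0.06 to 0.14. Without Female HFHS 201, 210 and 224, chosen after seeing the data, they were 51 and 39 (62 and 44), and without 225 as well 22 and 33 (34 and 34). Leaving out 1 rat gave 134 (Male HFHS 101) to 288 (Female HFHS 224) higher and 118 (Female HFHS 210) to 214 (224) lower, autosomal 136 to 300 and 212 to 343, with counts moved by over 1.5 times without Female HFHS 201, 202 and 210 and Male HFHS 101, 102 and 103. It gave 0 for the difference between the diets and 220 to 245 on chow. The test of the difference between the diets gave 0, but 1 with DESeq2, 5 with the female titles, 7 with exchanged male diets, 2 without 201, 210 and 224 and 9 without 225 as well. On chow, 230 genes were called, 138 with a filter at 1 CPM, 12 with the covariate and 851 with exchanged male diets. Differences turned in sign for Clec4f (0.00) and Cyp1a2 (1.20) without 201, 210, 224 and 225, and for Mrpl49 (0.03) and Nfkbiz (-0.31) with exchanged male diets, and in no other named gene called. The causes were not tested. Fewer rats leave less precision in the fits without rats, where the median SE went up.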
